A study of Mus musculus with 2 samples.

Results

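Rax (also called Rx) encodes a homeodomain transcription factor of the early eye field, the part of the anterior neural plate that forms the retina, and eyes do not form without it. N6-methyladenosine (m6A) is a methyl mark placed on adenosines of messenger RNA by a nuclear complex whose catalytic subunit is METTL3. It occurs mainly where the adenosine is followed by a C, and it is known to influence the splicing, stability and translation of the RNA that carries it. The positions listed for Rax in a transcriptome-wide m6A table were examined here: all rows that carry this gene name, which is 1 of 8262 names in the tables. They comprised 8 positions on 1 transcript, ENSMUST00000025396.3, of which 6 were listed in replicate 1 and 7 in replicate 2.

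Poly(A) RNA of retinal organoids at day 6, which are tissue aggregates grown from stem cells in culture, was sequenced as native RNA on nanopores with the RNA002 chemistry. The 2 libraries form a single wild-type group of the mouse line Rx:GFP, in which green fluorescent protein reports Rx activity, and both received AGN at 0.1 µM for 6 days in a medium with serum replacement. The sources used here do not state how the reporter was inserted or whether it alters a Rax allele. Nothing in the labels says that the replicates came from separate cultures, so the spread between them may be technical, and without a second group no conditions could be compared.

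Each row of a deposited table gives a motif of 5 bases, the coverage (reads over the position) and the fraction modified (0 to 1). The denominator of the fraction is not stated and is not the coverage for most Rax values, so coverage is given beside each fraction as the depth of the position. A site below is a position with at least 20 reads in its library, and a shared site has that coverage in both. The tables hold 26441 and 50099 positions in replicates 1 and 2, with 5221 shared sites on 2101 transcripts. Among markers of the tissue, 10 of 15 eye-field and retinal progenitor genes were listed in replicate 1 and 13 in replicate 2, and all 5 neural progenitor genes in at least 1 library, while none of 9 pluripotency genes and none of 6 mesoderm and endoderm genes was listed in either. As a position was listed only from 5 reads, the lists describe detection and not expression, and they do not tell eye field from other forebrain tissue.

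The deposited gene interval of Rax is chromosome 18, 66061348 to 66072858, and no other listed gene overlaps it. Its build is uncertain, because the submitters' processing notes name mm10 while its start is over 1000 nt from that of Rax in RefSeq's GRCm38.p6 table. Positions below are counted along the transcript from its start. Whether they lie in coding sequence or untranslated regions was not analysed here.

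The Rax positions carried 3 of the 4 motifs in the tables, which are shown because the fraction modified differs between motifs and each site is read against its own. The A that precedes the C is the candidate methylated base in all of them, although which base of the motif a listed position marks is not stated.

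GGACA: positions 138, 1196, 1411 and 1470

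GGACC: positions 167, 975 and 1543

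GGACT: position 618

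No Rax position carried AGACT, the remaining motif. The positions were unevenly spaced: 138 and 167 lay 29 nt apart near the transcript start, the next lay 451 nt further on at 618, and 1411, 1470 and 1543 followed each other at 59 and 73 nt.

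Of the 8 positions, 5 were shared sites. The fraction modified listed for these sites differed widely along the transcript, from a mean of 0.970 to means under 0.3. It is a deposited score, and the samples include no unmodified control. Position 138, the one closest to the transcript start, reached 0.981 in replicate 1 (coverage 60 reads) and 0.960 in replicate 2 (coverage 78 reads), or 0.970 ± 0.0147 (SD, n = 2). Its neighbour at 167 had 0.727 and 0.686, at coverages of 61 and 80 reads, or 0.707 ± 0.0290 (SD, n = 2). Both sites near the start were thus high in each library.

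Further along, position 975 was low, at 0.227 in replicate 1 (coverage 33 reads) and 0.235 in replicate 2 (coverage 51 reads), or 0.231 ± 0.00566 (SD, n = 2). Position 1196 had 0.850 and 0.853, at coverages of 34 and 53 reads, or 0.851 ± 0.00205 (SD, n = 2). Position 1411 had 0.300 and 0.250, at coverages of 37 and 56 reads, or 0.275 ± 0.0354 (SD, n = 2). Among these later shared sites, a fraction of 0.851 thus lay between 2 sites at or below 0.3 in each library.

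**Figure D1:**
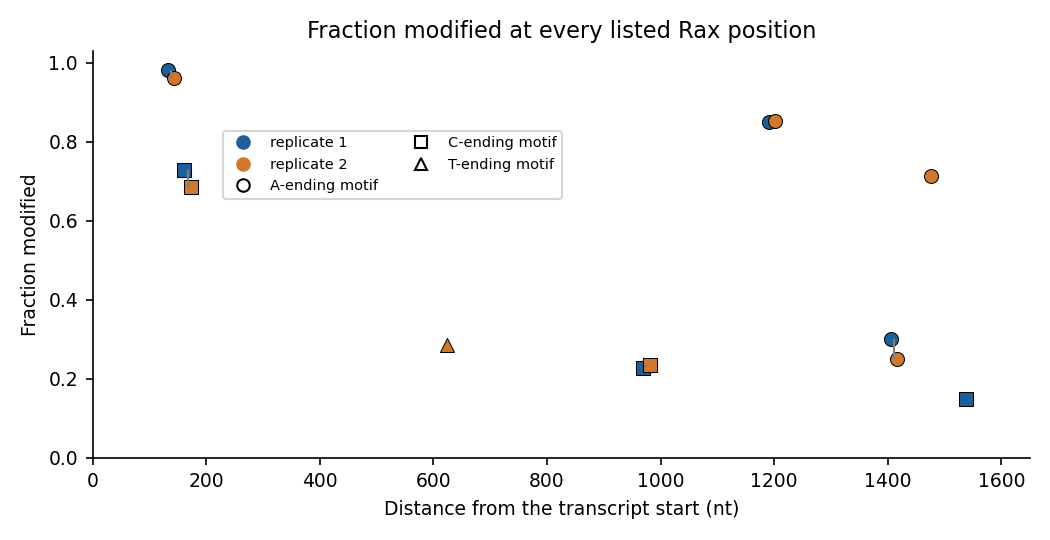
Fraction modified (vertical axis, 0 to 1) at each listed Rax position against its distance in nt from the transcript start, with replicate 1 in blue and replicate 2 in orange, drawn 6 nt to the left and right of the position. Circles, squares and triangles mark motifs that end in A, C and T. The libraries lie within 0.05 of each other at all 5 shared sites, whose means run from 0.231 to 0.970.

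The order of the 5 shared sites by fraction was the same in both libraries: 138, 1196, 167, 1411 and 975 from high to low. The highest and the lowest, 138 and 975, differed by 0.754 in replicate 1 and 0.725 in replicate 2. These are different motifs, so sites of 1 motif were also compared. At GGACA, 138 exceeded 1196 by 0.131 in replicate 1 and 0.107 in replicate 2, and 1196 exceeded 1411 by 0.550 and 0.603. At GGACC, 167 exceeded 975 by 0.5 in replicate 1 and 0.451 in replicate 2. Each of these gaps was larger than the spread between the libraries. The 2 lowest sites, 1411 and 975, differed by 0.0727 and 0.0147, a mean of 0.0437 ± 0.0410 (SD, n = 2), which is not clearly beyond that spread. An exact paired permutation test over the 2 libraries gave two-sided p = 0.5 for each of the 10 pairs of shared sites, and 0.5 after Benjamini-Hochberg adjustment. This is the smallest value it can give, so it separates none of them.

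Rax fractions repeated closely between the libraries. The root mean square difference over the 5 shared sites was 0.0306, against 0.108 over 1764 shared sites whose mean coverage lay in the range of Rax, 42 to 70.5 reads. The median absolute difference was 0.0208 for Rax and 0.0596 for those sites. The largest, at 1411, was 0.05. None of the 5 differed by more than 0.2, and 5.94% of all 5221 shared sites did. With so few sites this is near that share and does not set Rax apart. The 5 sites lie on the same transcript and are not replicates. The fraction was lower in replicate 2 at 3 sites and higher at 2.

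Set against all shared sites of their motif, 3 of the 5 Rax sites lay above the motif's median, 975 lay at it and 1411 below it, and the first 2 sites of the transcript stood highest. The median fraction was 0.680 over 2001 GGACA sites (interquartile range 0.375 to 0.899) and 0.221 over 1162 GGACC sites (0.119 to 0.418). Position 138 ranked at percentile 91.1 of the GGACA sites, position 1196 at 67.7 and position 1411 at 16.7. Position 167 ranked at percentile 91.6 of the GGACC sites and position 975 at 51.9, which fell to 48.7 among sites of like coverage, so 975 lay at the median within the choice of reference. In this ranking the GGACC site at 167 with a fraction of 0.707 stood as high as the GGACA site at 138 with 0.970.

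**Figure D2:**
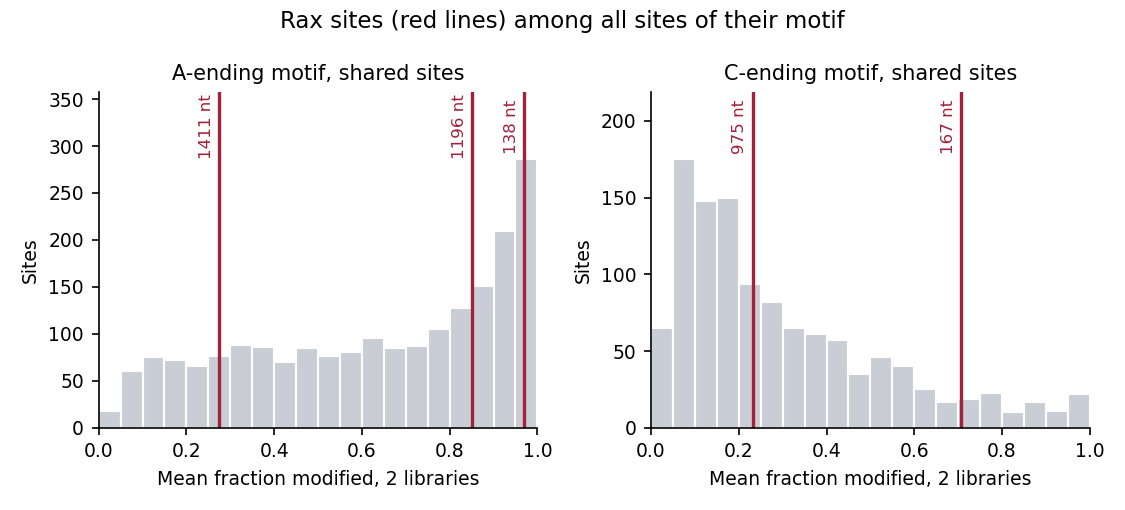
Histograms of the mean fraction modified of the 2 libraries (horizontal axis) over all shared sites, as numbers of sites, for the motif ending in A (left, GGACA, 2001 sites) and in C (right, GGACC, 1162 sites). Red lines mark the Rax sites by position: 138 and 167 fall in the upper tail of their motifs, 975 lies near the median of its motif, and 1411 lies below the lower quartile of 0.375.

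The ranks were alike in the single libraries. Position 138 was at percentile 91.4 of GGACA sites in replicate 1 and 88.1 in replicate 2, and position 167 at 91.5 and 90.5 of GGACC sites. Among sites whose mean coverage was within a factor of 2 of the Rax site, 138 was at percentile 90.9 of 1413 and 167 at 91.8 of 777. A fraction of at least 0.9 in both libraries, as at 138, was found at 20.4% of shared GGACA sites, and at 12 of the 51 that lay in the first 150 nt of their transcript (23.5%). A fraction of at least 0.5 in both, as at 167, was found at 16.5% of shared GGACC sites. These levels are in the upper range for their motifs, and many other transcripts reach them.

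Positions 138 and 167, the Rax sites with the highest percentiles, lie in the first 200 nt of the transcript, so they were also set against sites in that window alone. The median there was 0.736 over 109 GGACA sites and 0.256 over 63 GGACC sites. Position 138 was at percentile 90.4 and position 167 at 84.9. The rank of 138 was nearly the same as among all GGACA sites, and that of 167 was lower than among all GGACC sites.

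Over the 5 shared sites the mean fraction was 0.617 in replicate 1 and 0.597 in replicate 2, or 0.607 ± 0.0143 (SD, n = 2). The medians of the corresponding motifs average 0.496. Rax thus exceeded its motif medians by a mean of 0.118 in replicate 1 and 0.106 in replicate 2. By site, the mean fraction minus the motif median was 0.291 at 138, 0.486 at 167, 0.0108 at 975, 0.172 at 1196 and -0.4045 at 1411. Position 167 thus contributed most to the mean excess. Among 117 transcripts with exactly 5 shared sites, the mean excess of Rax was at percentile 72.2, and the median of this measure was 0.0420. The range between the highest and the lowest Rax site, 0.739, was at percentile 49.1 of the same transcripts, whose median range was 0.741. Wide differences between sites of 1 transcript were therefore common. Within a motif the Rax range was wider than the median: 0.695 at GGACA against 0.498 over 87 transcripts with 3 such sites (percentile 75.3), and 0.476 at GGACC against 0.167 over 161 transcripts with 2 (percentile 87.3).

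The remaining 3 positions were listed in a single library. Position 618 was listed in replicate 2 with a fraction of 0.286 at a coverage of 35 reads, at percentile 57.8 of the 3920 GGACT sites of that library. Position 1470 was listed in replicate 2 with 0.714 at a coverage of 57 reads, at percentile 54.5 of 5773 GGACA sites. Position 1543 was listed in replicate 1 with 0.150 at a coverage of 37 reads, at percentile 33.9 of 1539 GGACC sites. None of these fractions has a replicate, and each was within the middle range of its motif.

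At 1470 and 1543 the neighbouring sites were covered in the library that lacked the position. Position 1543 was not listed in replicate 2, although 1470, at 73 nt from it, had 57 reads there. Position 1470 was not listed in replicate 1, although the flanking positions 1411 and 1543 each had 37 reads. Position 618 has no near neighbour: the flanking positions listed in replicate 1, 167 and 975, lie 451 and 357 nt from it with 61 and 33 reads, and its 35 reads in replicate 2 are the lowest of Rax there. Coverage at an unlisted position is itself unknown, and the rule by which positions entered the tables is not stated. Of the Rax sites of replicate 1, 1 of 6 was missing from replicate 2, and over all transcripts with a site in replicate 2 the share was 17.5%. Of those of replicate 2, 2 of 7 were missing from replicate 1, against 16.6% over all such transcripts. With so few positions the Rax counts are near those shares. Whether the fraction at a position affects its listing was not tested. Rax had no row in the minus tables of either library.

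Coverage of Rax was highest at the start of the transcript. In replicate 1 it was 60 and 61 reads at 138 and 167, then 33, 34, 37 and 37 reads at 975, 1196, 1411 and 1543. In replicate 2 it was 78 and 80 reads at the first 2 positions, 35 at 618, and 51, 53, 56 and 57 reads at 975, 1196, 1411 and 1470. In both libraries coverage was thus highest at the start. The later positions of replicate 1 lay close together, at 33 to 37 reads. The lowest of replicate 2 was 618, which replicate 1 does not list. The coverage at 138 was 1.62 times that at 1411 in replicate 1 and 1.39 times in replicate 2.

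**Figure D3:**
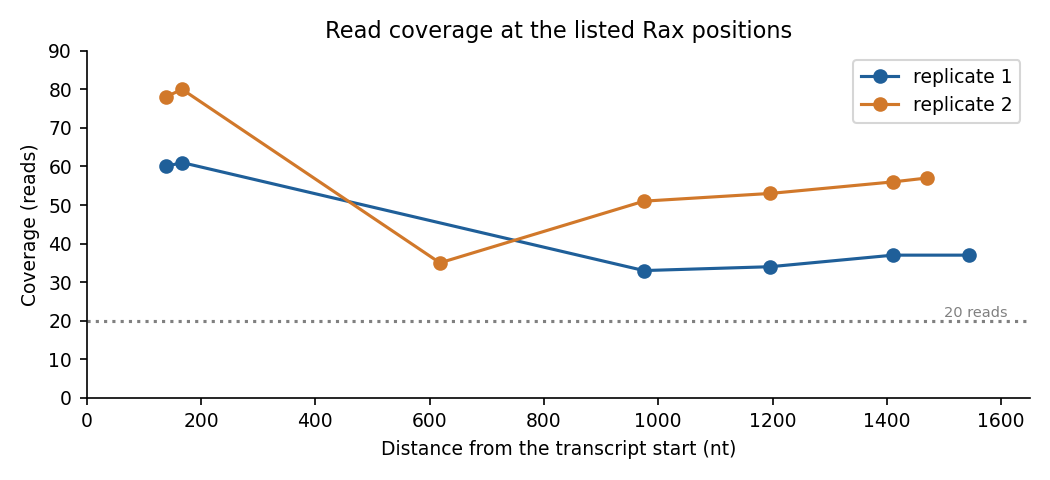
Coverage in reads (vertical axis) at each listed Rax position against its distance in nt from the transcript start, with replicate 1 in blue and replicate 2 in orange. Lines join the listed positions of a library and the dotted line marks 20 reads. Coverage is highest at 138 and 167 in both libraries and lowest at 975 in replicate 1 (33 reads) and at 618 in replicate 2 (35 reads).

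Direct RNA reads start at the poly(A) tail, so coverage usually falls towards the transcript start. Among 53 transcripts with a shared site in the first 200 nt and another at least 1000 nt further on, the coverage at the first over that at the last shared site had a median of 0.714 in replicate 1 and 0.770 in replicate 2. It exceeded 1 in 17.0% and 18.9% of them. Rax was one of these, at percentile 85.8 in each library, and 8 of the 53 transcripts, Rax included, had a ratio at least as high. In Rax more reads were counted at 138 and 167 than at any later site. At each later site some reads counted at the start were thus not counted, and the cause was not tested.

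Rax also differed from most transcripts in its coverage in the 2 libraries. At all shared sites the coverage in replicate 2 was a median of 2 times that in replicate 1. At Rax the ratio was 1.30 at 138, 1.31 at 167, 1.55 at 975, 1.56 at 1196 and 1.51 at 1411, with a median of 1.51. A ratio no higher than the highest of Rax was found at 17.5% of shared sites, and the Rax median was at percentile 17.6 of the medians of 2101 transcripts. Over the 1764 sites in the coverage range of Rax the median ratio was 2.17.

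Counting error was considered by the share of the reads of both libraries that came from replicate 2, whose median over all shared sites was 66.7%. At 138 it was 56.5% of 138 reads (95% exact Clopper-Pearson interval 47.8% to 64.9%), and at 167 it was 56.7% of 141 reads (48.1% to 65.0%). These intervals lie below the median of all sites. At 975, 1196 and 1411 the shares were 60.7%, 60.9% and 60.2%, and their upper bounds of 71.2%, 71.2% and 70.2% lie above it. Reads that span several positions are counted at each, so the 5 shares are not independent, and the intervals cover counting error only. Technical differences between the libraries, fewer cells with Rax RNA and less Rax RNA per cell cannot be told apart in such bulk libraries.

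**Figure D4:**
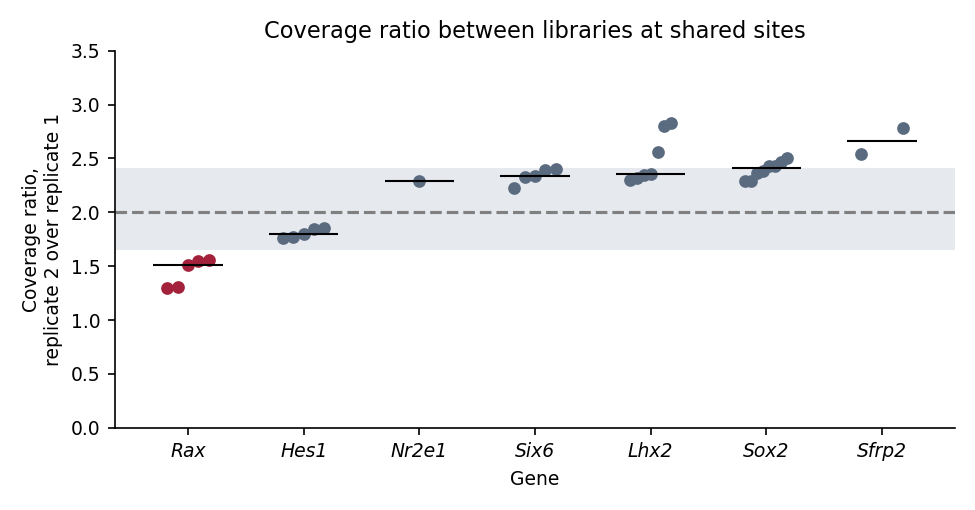
Ratio of coverage, replicate 2 over replicate 1 (vertical axis), at each shared site of the 7 genes on the eye-field list that have one, with Rax in red. Short black lines are gene medians, the dashed line is the median of 2 over all shared sites and the grey band their interquartile range, 1.66 to 2.40; all 5 Rax sites lie under the band.

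On the list of 15 eye-field genes 7 had shared sites, and Rax had the lowest median coverage ratio of these. Hes1, a transcriptional repressor downstream of Notch, followed at 1.80 over 5 sites. Six6, a homeodomain factor of the optic vesicle, had 2.34 over 5 sites. Lhx2, a LIM homeodomain factor of the eye field, had 2.35 over 7, and Sox2, a factor of neural progenitors, had 2.41 over 8. Nr2e1 had 2.29 at 1 site and Sfrp2, a secreted Wnt antagonist, 2.66 at 2. The Rax sites, at 1.30 to 1.56, did not overlap those of any of these genes, the lowest of which was 1.76 in Hes1. Over all shared sites, 17.5% had a ratio no higher than the highest of Rax. Sites of the same transcript share reads and are not separate values.

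The genes next to Rax in highest coverage are given for its level. By the highest coverage of any of its positions, Rax reached 61 reads in replicate 1 and 80 in replicate 2, a mean of 70.5 that 7 of 5494 genes listed in both libraries share. Its neighbours in that order, with ties taken alphabetically, are Hnrnpl (a splicing regulator, 35 and 106 reads), Pafah1b2 (49 and 92), Slbp (the histone mRNA stem-loop binding protein, 47 and 94) and Tm9sf3 (34 and 107). In replicate 1 each of these 4 was lower than Rax; since the means are tied, each was then necessarily higher in replicate 2. The other genes at this mean are not named by the rule. Within each library Rax ranked 648 of 5699 and 1023 of 8057 genes, at percentiles 88.5 and 87.2. These ranks come from lists of different length and show no change by themselves.

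The modification of Rax was then set beside that of Lhx2, Six6 and Sox2. The shared sites of Lhx2 had a mean fraction of 0.361 ± 0.0207, those of Six6 0.354 ± 0.00355 and those of Sox2 0.377 ± 0.0158 (each SD, n = 2), all below the 0.607 of Rax, while the 2 sites of Sfrp2 had 0.612 ± 0.0287 (SD, n = 2). These means mix motifs in different proportions: 3 of 5 Rax sites were GGACA, the motif with the highest median, against 3 of 7 in Lhx2, 2 of 8 in Sox2, 0 of 5 in Six6 and both in Sfrp2. Relative to the motif medians, the mean excess was 0.111 ± 0.00849 in Rax and 0.111 ± 0.000495 in Six6 (each SD, n = 2). In Sox2 it was 0.0238 ± 0.0235, in Sfrp2 -0.0672 ± 0.0434 and in Lhx2 -0.0771 ± 0.0337 (each SD, n = 2). Read within motifs, Rax and Six6 differed by less than the spread between replicates, while the values of Rax exceeded those of Sox2, Sfrp2 and Lhx2 in both libraries. Each mean excess is taken over few sites. In Rax the single sites ran from -0.4045 at 1411 to 0.486 at 167.

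At the level of single sites, position 138 of Rax had the highest mean fraction of the 33 shared sites in these 7 genes. The highest GGACA sites of the others were 0.905 at position 1005 of Sfrp2, at percentile 76.3 of the motif, and 0.899 at position 1854 of Lhx2, at percentile 75.04. Position 1192 of Sox2, a GGACT with 0.821, ranked as high within its motif, at percentile 91.5, as positions 138 and 167 of Rax. The lowest Rax percentile, 16.7 at 1411, was above the lowest in Hes1 (5.35) and Lhx2 (10.6), and below that in Six6 (25.7). The sites of Hes1 spanned a wider range of percentiles than those of Rax, 5.35 to 88.5, and those of Sox2 a like one, 19.7 to 91.5.

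**Figure D5:**
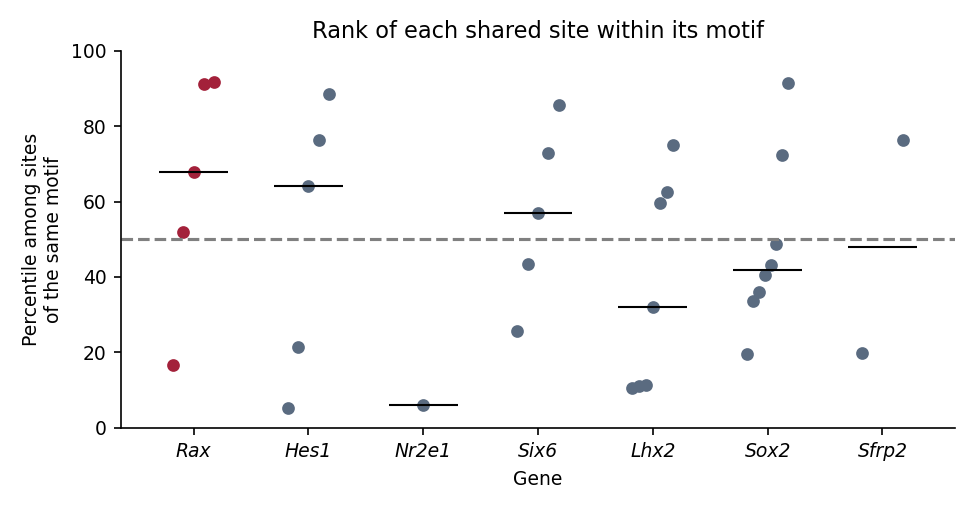
Percentile of the mean fraction of each shared site among all shared sites of its own motif (vertical axis) for the 7 genes on the eye-field list with shared sites, Rax in red. Short black lines are gene medians and the dashed line is percentile 50. Rax has 2 sites above percentile 90, and its sites span 16.7 to 91.6.

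Transcripts with a like profile were sought among the 115 others of named genes with exactly 5 shared sites, by the root mean square difference between their sorted mean fractions and those of Rax. The median of this measure was 0.226. It was smallest for Nap1l4, a nucleosome assembly protein (0.0544), followed by Arf6, a small GTPase of membrane traffic (0.0628), Psmd3, a proteasome subunit (0.0653), Pkdcc, a secreted tyrosine kinase (0.0748), and Vdac2, a channel of the outer mitochondrial membrane (0.0833). In Nap1l4 the 5 fractions were 0.226, 0.269, 0.659, 0.744 and 1, against 0.231, 0.275, 0.707, 0.851 and 0.970 in Rax. The highest site of Nap1l4 was a GGACA at position 1990, so its profile was alike in values and not in position. Such likeness of sorted values describes the numbers alone.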

How the data were processed

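Each library has a plus and a minus table made by the authors. The coverage is a deposited whole-number count of reads, and the fraction modified is a deposited fraction whose denominator is not stated: with a tolerance of 0.0001, 3 of the 13 Rax values are whole multiples of 1 over the coverage. No read counts, intervals or read-level tests were derived from fractions. The base caller, aligner and modification caller are not given in the sources used here. The build named in the submitters' processing notes is mm10, yet 3.03% of 8174 gene names have a listed start within 1000 nt of RefSeq's GRCm38.p6.

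Sites were matched on transcript and end position at 20 reads or more. Percentiles are mid-ranks among shared sites of the same motif, and sites are not replicates. The gene, the lists and the comparisons were chosen with earlier results of these data known. Named are the 5 most like transcripts with as many shared sites, the neighbours in highest coverage, and the eye-field list. Scripts (Python 3.11.15, pandas 2.3.3, scipy 1.17.1) were tested on simulated data. Alternatives were the coverage minimum, the matching, the weighting, the reference sites and each library left out. A marker list of other forebrain regions is not reported here.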

Additional observations from a re-analysis of the deposited data

How the results depend on the processing

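Of 64 alternative values for 17 results, 49 were labelled the same and 15 moved. The limit was 1.5 times for the count of sites and the spread between replicates for fractions, site percentiles and the ratio of first to last site. For the coverage ratio, its percentile and the root mean square difference it was a spread between Rax sites. The difference between the highest and the lowest site was judged by its sign alone, which did not change. The percentile of 975 crossed 50. With a minimum of 50 reads, 2 Rax sites were shared in place of 5 (138 and 167), their mean fraction was 0.839 in place of 0.607, and their median coverage ratio was 1.31. Weighting sites by coverage gave a mean fraction of 0.648, since the deepest sites are those at the start. With reference sites of any listed coverage, the percentiles of 138, 167 and 975 became 86.6, 88.3 and 47.5, and with at least 50 reads those of 167 and 975 became 94.3 and 57.1. Position 975 was at percentile 48.7 among sites of like coverage and at 51.6 with 1 transcript per gene, so its side of the motif median depends on the reference. Position 167 was at 84.9 among sites in the first 200 nt. The cause of these shifts was not tested. No coverage minimum left the same 5 shared sites, since no Rax position has fewer than 33 reads. Leaving out a replicate gave percentiles of 88.1 to 91.4 at 138, 90.5 to 91.5 at 167 and 51.2 to 51.8 at 975. With 2 libraries, leaving 1 out shifts a mean by less than 1 SD by construction, which is no sign of stability. The same holds for weighting the 2 libraries by coverage at a site. Reference sites in the first 200 nt, 1 median per transcript and the ratio of first to last site were chosen after seeing the data. With a single group, replicate numbers could not pair samples across groups, and pairing was used only between sites of 1 library. Coverage at the Rax sites was 33 to 80 reads, and the number of reads behind each fraction is unknown.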
